A study of Mus musculus with 131 samples.

Results

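Adh1, Enpep, Smpdl3a, Fam213a and Tspan8 are 5 of the 13927 genes in the expression table of a study of reconstructed mouse embryos. They were taken by name, because earlier results of these data had put them among the lowest in injected cells relative to host cells, and all 5 were found. Fam213a is listed there under its other symbol, Prxl2a. Of the 5, 4 code for enzymes or enzyme-like proteins, and Tspan8 is a membrane protein with no enzymatic role in its name or family.

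The study injected embryonic stem cells (ESCs) into diploid host embryos of strain C57BL/6J. In the design text, ESCs with an Actin-RFP transgene went into eight-cell host embryos with an Actin-GFP transgene, so red fluorescence marks the injected line and green fluorescence the host. The 55 RFP cells and 40 GFP cells were picked singly from blastocysts at E4.0. The 3 bisulfite libraries came from cultured Actin-RFP ESCs at passage 10, Gjb2-35delG ESCs at passage 7, which carry a 1-base deletion in a gap junction gene, and mouse embryonic fibroblasts (MEF) at passage 2. Each is the only library of its kind. The other samples among the 131 of the series are not analysed here. No label says which embryo a cell came from, how cells were chosen for picking or from which ESC clone, so each set of cells counts as 1 sample and no test was made between them.

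Adh1 is the class I alcohol dehydrogenase, which oxidises ethanol and also retinol, the first step towards retinoic acid. Enpep is glutamyl aminopeptidase, an ectoenzyme that trims acidic residues from peptides such as angiotensin II. Smpdl3a is a relative of acid sphingomyelinase that hydrolyses nucleotides. Fam213a is a peroxiredoxin-like protein with a thioredoxin fold. Tspan8 is a tetraspanin, one of a family of membrane proteins that organise other membrane proteins into microdomains. The trophectoderm, the outer epithelium of the blastocyst, absorbs and secretes and later forms placenta, while the epiblast inside gives the embryo proper.

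Adh1 lies at chr3:138277585-138290698 and Enpep at chr3:129269177-129332749. Fam213a lies at chr14:40993735-41013833, Tspan8 at chr10:115816817-115849893 and Smpdl3a at chr10:57794544-57811830, all in GRCm38, the assembly behind mm10. The methylation data bear on the starts of these genes, so the 250 bases just upstream of the start are shown for the 4 genes in RefSeq's promoter table of GRCm38.p6. They are written 5′ to 3′ on the gene's own strand, with each CpG, the dinucleotide whose methylation was measured, in capitals. The spans are chr3:138277335-138277584 for Adh1 (plus strand), chr3:129332750-129332999 for Enpep (minus strand), chr14:41013834-41014083 for Fam213a (minus strand) and chr10:115817034-115817283 for Tspan8 (plus strand). For Tspan8 the only start in that table lies 467 bases inside the gene's span, so its stretch and the methylation distances refer to that start and not to the outer end of the gene.
Adh1: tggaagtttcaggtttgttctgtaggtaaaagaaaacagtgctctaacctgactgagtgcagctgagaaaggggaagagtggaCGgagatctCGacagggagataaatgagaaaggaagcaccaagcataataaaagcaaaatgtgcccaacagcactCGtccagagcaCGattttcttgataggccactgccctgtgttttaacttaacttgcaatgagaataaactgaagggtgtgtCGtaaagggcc
Enpep: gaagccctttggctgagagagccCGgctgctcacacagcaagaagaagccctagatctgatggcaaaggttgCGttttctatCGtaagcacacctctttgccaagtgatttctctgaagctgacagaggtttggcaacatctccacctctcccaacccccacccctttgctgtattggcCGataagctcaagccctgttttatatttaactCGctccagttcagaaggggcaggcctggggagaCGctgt
Fam213a: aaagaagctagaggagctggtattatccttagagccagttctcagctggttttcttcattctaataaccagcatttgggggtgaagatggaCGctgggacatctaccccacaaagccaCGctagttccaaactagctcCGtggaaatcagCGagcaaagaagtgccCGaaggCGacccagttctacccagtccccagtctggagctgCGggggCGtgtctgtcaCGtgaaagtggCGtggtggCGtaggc
Tspan8: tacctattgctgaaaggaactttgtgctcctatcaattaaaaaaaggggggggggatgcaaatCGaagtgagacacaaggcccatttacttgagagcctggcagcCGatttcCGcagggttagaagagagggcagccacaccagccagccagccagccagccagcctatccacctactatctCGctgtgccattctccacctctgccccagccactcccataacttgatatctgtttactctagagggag

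These upstream stretches hold 4 CpGs in Tspan8, 5 in Adh1, 6 in Enpep and 11 in Fam213a. Over 27025 promoters the median was 6, with quartiles of 2 and 16, so all 4 genes lay between the quartiles. In Fam213a, 5 of the 11 lie in the 50 bases nearest the start. A search of both strands found the motif of GATA factors, AGATAA, in Adh1 only of the 4, with its first base 150 bases before the start, and 10.2% of all promoters hold it. TATAAA was found in Enpep alone of the 4, on the strand opposite the gene's own, so that the printed stretch reads tttata from 52 bases before the start, and 12.98% of promoters hold it. GGAATG, the TEAD motif, and GCCNNNGGC, the AP-2 motif, were in none of the 4, against 12.6% and 13.5% of all promoters. A match in letters does not show binding, and its absence covers only this window.

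Depth ran from 0.518 to 9.56 M reads in RFP cells (median 5.58 M, total 311 M) and from 1.996 to 8.32 M reads in GFP cells (median 5.61 M, total 224 M). The lineage markers differed strongly between the sets. The 20 trophectoderm markers summed to 0.713 to 4110 CPM (a gene's reads per M reads of the cell) in single RFP cells, with a median of 272, and to 34.4 to 18893 CPM in GFP cells, with a median of 10663. The 13 epiblast markers summed to 30.9 to 6234 CPM in RFP cells, with a median of 2651, and to 0.2 to 1717 CPM in GFP cells, with a median of 32.7. The 14 measured primitive endoderm markers summed to at most 941 CPM in RFP cells, with a median of 1.07, and at most 3086 in GFP cells, with a median of 553. The cell sets therefore differ in lineage markers as well as in origin, and for the 5 genes those differences cannot be told apart. GFP cell 27 stood apart, with the lowest trophectoderm sum and the highest epiblast sum of the GFP cells. It also had 14.9% mitochondrially encoded reads, and 4 RFP cells (6, 14, 41 and 44) had over 10% as well.

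Summed over all cells, each of the 5 genes in RFP cells stood below 0.4% of its level in GFP cells. This contrast was used to choose the genes, so the values describe them and support nothing. On log2 of CPM + 1, all 5 stood at least 1 lower in RFP cells, as did 21.9% of the 13922 genes with a symbol, and 25% stood at least 1 higher. Of the 20 trophectoderm markers 16 stood at least 1 lower in RFP cells and 3 at least 1 higher, and of the 13 left without genes that other lineages share 12 were lower and 1 higher. Of the 14 primitive endoderm markers 12 were lower and 0 higher, and of the 13 epiblast markers 0 were lower and 11 higher. On the mean of log2(CPM + 1) per cell only 4 of the primitive endoderm markers were lower, and 1 trophectoderm marker was higher. Cdx2, which specifies the trophectoderm, had a read in 2 RFP cells. The added 1 makes these ratios understate the difference of low genes. CPM is not divided by length, so levels are not compared between genes.

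Adh1 in RFP cells ran from 0 to 117 CPM with a median of 0.552, and in GFP cells from 0 to 9463 CPM with a median of 1295. The RFP maximum was exceeded by 32 of 40 GFP cells, and no RFP cell reached the GFP median. Summed, RFP cells reached 2.20 CPM (exact 95% Poisson interval 2.04 to 2.38) and GFP cells 1832 CPM (1826 to 1837), and the log2 ratio was -9.16.

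Enpep in RFP cells ran from 0 to 6.46 CPM with a median of 0, and in GFP cells from 0 to 1247 CPM with a median of 273. The overlap came from 4 GFP cells, since 36 of 40 exceeded the RFP maximum. Summed, RFP cells reached 0.238 CPM (0.187 to 0.298) and GFP cells 334.8 CPM (332 to 337), and the log2 ratio was -8.08.

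Smpdl3a in RFP cells ran from 0 to 7.72 CPM with a median of 0, and in GFP cells from 0 to 642 CPM with a median of 185. It overlapped most, with 31 of 40 GFP cells above the RFP maximum and the other 9 under 10 CPM. Summed, RFP cells reached 0.321 CPM (0.261 to 0.391) and GFP cells 214 CPM (212 to 216), and the log2 ratio was -7.34.

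Fam213a in RFP cells ran from 0 to 50.1 CPM with a median of 0.230, and in GFP cells from 0.316 to 2684 CPM with a median of 580. Here 36 of 40 GFP cells exceeded the RFP maximum. Summed, RFP cells reached 1.10 CPM (0.988 to 1.23) and GFP cells 633 CPM (630 to 636), and the log2 ratio was -8.24.

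Tspan8 in RFP cells ran from 0 to 55.2 CPM with a median of 0.293, and in GFP cells from 2.91 to 2109 CPM with a median of 668. All GFP cells but 2 lay above the RFP maximum, the cleanest separation of the 5. Summed, RFP cells reached 2.92 CPM (2.74 to 3.12) and GFP cells 748 CPM (744 to 752), and the log2 ratio was -7.58. In the authors' deposited table the log2 fold changes are -7.66 for Adh1, -9.39 for Enpep, -8.92 for Smpdl3a, -7.96 for Fam213a and -6.67 for Tspan8. That order differs from the order of the summed ratios on log2(CPM + 1), in which Adh1 was lowest. The place of Adh1 depends on the added 1. With 0.1 CPM added instead, Enpep was lowest at -9.95 and Adh1 stood at -9.635. The sources used here do not say how cells entered the authors' model.

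**Figure D1:**
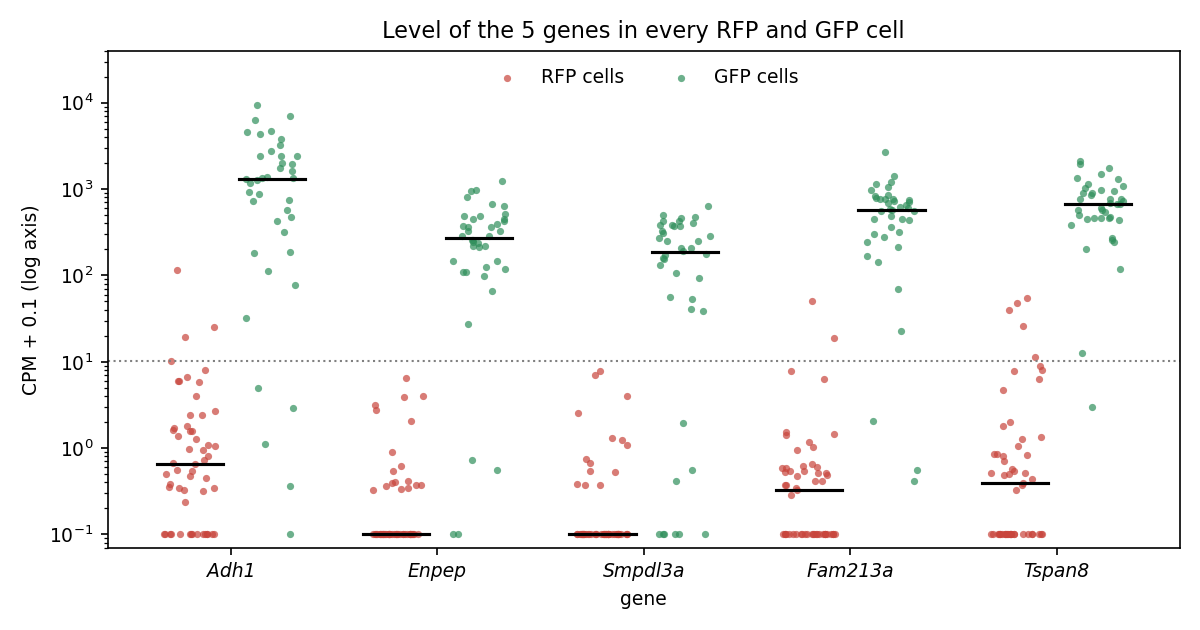
Each point is 1 cell, with the level of the gene as CPM + 0.1 on a log axis, RFP cells (n = 55) left of GFP cells (n = 40); bars are medians and the dotted line marks 10 CPM. The GFP medians sit between 185 and 1295 CPM and the RFP medians at or below 0.552 CPM, while single GFP cells fall to the RFP range for every gene.

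Within host cells the 5 genes differed in how evenly they were expressed. Tspan8 was at 10 CPM or more in 39 of 40 GFP cells (97.5%, exact 95% interval 86.8% to 99.9%), Fam213a in 37 (92.5%), Enpep in 36 (90%), Adh1 in 35 (87.5%, 73.2% to 95.8%) and Smpdl3a in 31 (77.5%, 61.5% to 89.2%). The intervals overlap even between the ends of this order, Tspan8 and Smpdl3a. The coefficient of variation (CV, SD over mean of CPM) was 0.659 for Tspan8, 0.797 for Fam213a, 0.849 for Smpdl3a, 0.850 for Enpep and 1.15 for Adh1. Among 2006 genes that averaged at least 100 CPM in GFP cells the median CV was 0.794, with quartiles of 0.596 and 1.01. Adh1 therefore varied more than 85.8% of these genes, Tspan8 more than 32.6%, and the other 3 lay near the middle.

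Gene by gene, host cells that lacked 1 member mostly held the others. All 5 genes were at 10 CPM or more in 26 of the 40 GFP cells and 4 of them in 11 cells. GFP cell 32 had 0.262 CPM of Adh1 beside 972 CPM of Enpep, 642 CPM of Smpdl3a and 1084 CPM of Tspan8. GFP cell 10 had no Adh1 read among 6.55 M reads and 392 CPM of Enpep, 252 CPM of Smpdl3a, 652 CPM of Fam213a and 697 CPM of Tspan8. The reverse also occurred: GFP cell 12, with the highest Adh1 level of 9463 CPM, had no Smpdl3a read. Their trophectoderm markers summed to 8958 CPM in cell 32, 9854 CPM in cell 10 and 15269 CPM in cell 12, against a GFP median of 10663.

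GFP cells 25, 27 and 38 held fewer than 4 of the genes at 10 CPM. Cell 38 had 1364 CPM of Adh1, 109 CPM of Enpep and 546 CPM of Tspan8, with 0.455 CPM each of Smpdl3a and Fam213a, and its trophectoderm markers summed to 6650 CPM. Cell 25 had the highest Tspan8 level of all, 2109 CPM, with 2.85 CPM of Adh1, 0.633 CPM of Enpep and 0.316 CPM each of Smpdl3a and Fam213a. Its trophectoderm markers summed to 7882 CPM and its epiblast markers to 0.949 CPM. Cell 27 had 4.84 CPM of Adh1, 2.91 CPM of Tspan8, 1.94 CPM of Fam213a and no read of Enpep or Smpdl3a. Its marker sums were 34.4 CPM for trophectoderm and 1717 CPM for epiblast, so it went against its set in the markers and in all 5 genes.

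**Figure D2:**
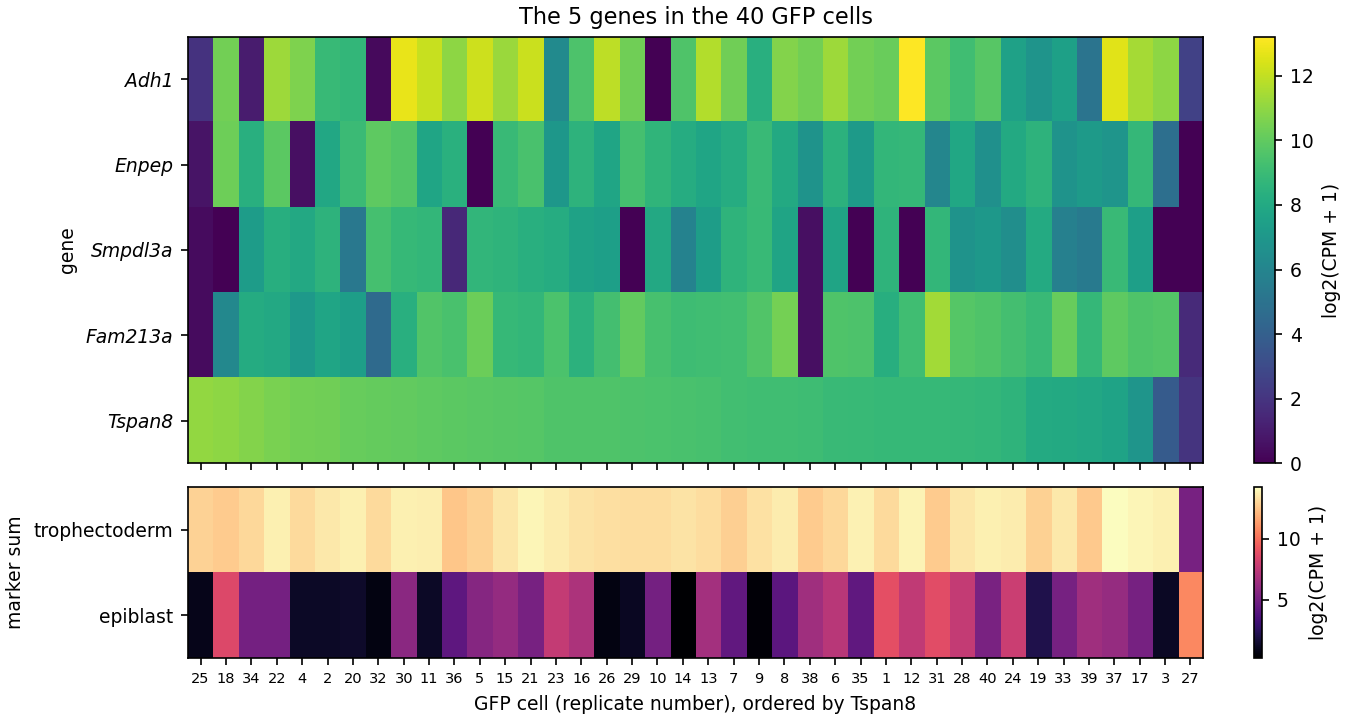
Columns are the 40 GFP cells, ordered from the highest to the lowest Tspan8 level; colours give log2(CPM + 1) of the 5 genes (upper panel) and of the summed trophectoderm and epiblast markers (lower panel). Single dark cells are scattered over the rows of Adh1, Enpep, Smpdl3a and Fam213a, cell 25 is dark in all but Tspan8, and cell 27 is dark in all 5.

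Co-expression across the 40 GFP cells was weak for most of the 10 pairs. Spearman's rho is given as a description with no test, since cells may share an embryo. Its median over the 10 pairs was 0.149, against a median of 0.0563 over all pairs of 3520 genes, whose middle 50% lay between -0.0686 and 0.178. The most positive pair was Enpep and Tspan8 (rho = 0.336), with 94.3% of all pairs lower, followed by Adh1 and Fam213a (0.258, 87.0% lower). Adh1 and Tspan8 (0.0270) and Adh1 and Enpep (0.0934) lay in the bulk of all pairs.

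Fam213a and Tspan8 ran opposite in rank, at rho = -0.468, and 0.263% of all pairs were lower. The 2 cells highest in Tspan8, cells 25 and 18, held 0.316 and 69.8 CPM of Fam213a, and GFP cell 31, highest in Fam213a at 2684 CPM, held 457 CPM of Tspan8. On Pearson's correlation of log2(CPM + 1) the same pair stood at 0.0607. Without GFP cell 27, which was low in both genes, that correlation was -0.364. Enpep and Fam213a likewise had rho = -0.227 and a Pearson correlation of 0.359, which was 0.196 without cell 27. Both genes were at 10 CPM or more in 37 GFP cells for Fam213a and Tspan8 and in 35 for Enpep and Fam213a.

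**Figure D3:**
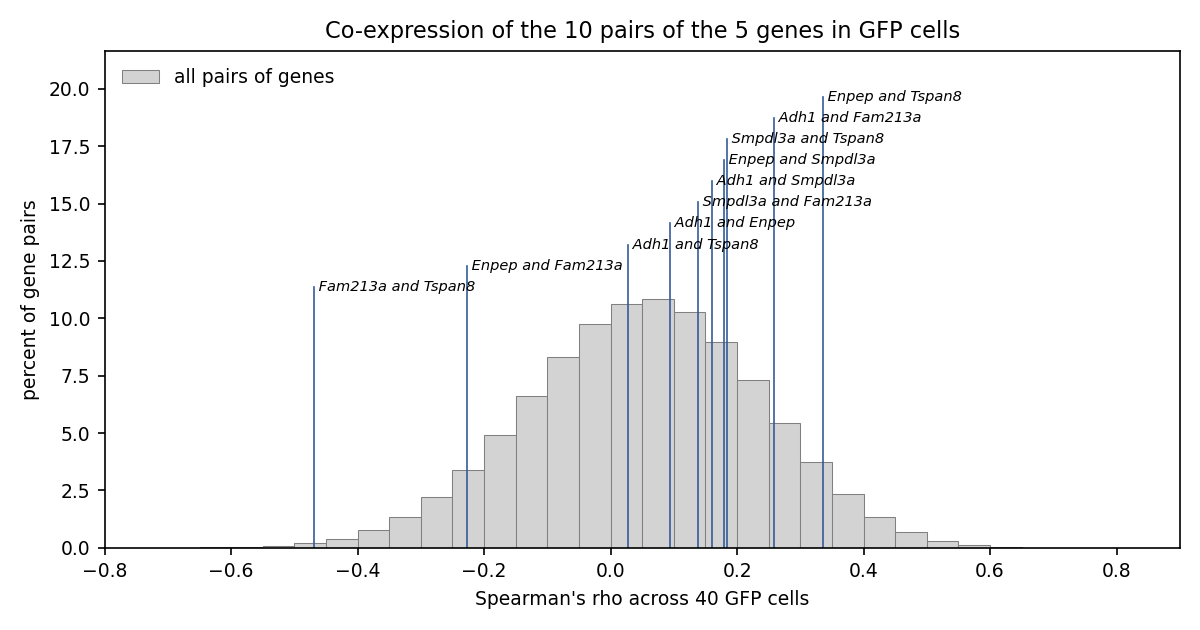
Grey bars give the percent of all gene pairs (3520 genes) in each bin of Spearman's rho across the 40 GFP cells, and blue lines the 10 pairs of the 5 genes. Most lines fall within the bulk of the bars, with Fam213a and Tspan8 (-0.468) far to the left and Enpep and Tspan8 (0.336) to the right.

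The nearest neighbours of each gene in rank across the 40 GFP cells were drawn from 3461 candidates, genes at 10 CPM or more in at least 20 GFP cells. No member was among the 5 nearest of another. Adh1 was nearest to Ndufb10, a subunit of respiratory complex I (rho = 0.560), followed by Slc25a3, Sod2, Mrps12 and Rab5if (0.519 or more). Enpep was nearest to Cenpe, a kinesin of the kinetochore (0.645), followed by Ube2c, Nusap1, Mrpl54 and Serpinb6a (0.538 or more). Smpdl3a was nearest to Sdf4 (0.592), followed by Psmb3, Atp5g1, Tns3 and Vps37a. Fam213a was nearest to Jagn1 (0.578), followed by Mkln1, Cd55, Mfsd1 and Slc38a4. Tspan8 was nearest to Ddx3x, an RNA helicase (0.585), followed by Ndufs6, Cox5a, Myef2 and Tubb5. Each first neighbour is the highest of 3461 values, and the most negative value was between -0.551 for Fam213a and -0.431 for Enpep.

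Of these 25 neighbours, 6 stood at least 1 lower in RFP cells and 1 at least 1 higher. Over all genes with a symbol 21.9% were lower and 25% higher, but those did not have to pass the neighbours' level filter in GFP cells. Ndufb10 stood at 280 CPM in RFP cells and 389 CPM in GFP cells, Cenpe at 220 CPM in RFP cells and 341 CPM in GFP cells, and Ddx3x at 445 CPM in RFP cells and 235 CPM in GFP cells. Among the 25, Cd55, a complement regulator, had the lowest log2 ratio of -3.99, with 10.07 CPM in RFP cells and 175 CPM in GFP cells. Tubb5, a beta tubulin, had the highest of 2.88, with 4281 CPM in RFP cells and 581 CPM in GFP cells.

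The 5 genes tracked the lineage markers only weakly within host cells. Spearman's rank correlation with the mean log2 level of the trophectoderm markers ran from 0.0524 for Smpdl3a to 0.296 for Enpep over the 40 GFP cells. With single markers, Adh1 reached 0.375 with Krt18, a keratin of the trophectoderm epithelium, and Tspan8 -0.305 with Krt8. Fam213a reached 0.375 with the primitive endoderm markers, and Tspan8 -0.336 with the epiblast markers. With the number of reads in the cell, rho ran from -0.159 for Adh1 to 0.269 for Fam213a. With the share of mitochondrially encoded reads it was negative for Adh1 (-0.352) and Fam213a (-0.221), and the part of that share in their variation was not tested.

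Traces of the 5 genes were spread over many injected cells but at very low levels. A read was present in 72.7% of RFP cells for Adh1 (40 of 55, exact 95% interval 59.0% to 83.9%) and in 97.5% of GFP cells. For Tspan8 the shares were 54.5% of RFP cells (40.6% to 68.0%) and 100% of GFP cells, and for Fam213a 52.7% of RFP cells (38.8% to 66.3%) and 100% of GFP cells. Enpep had a read in 32.7% of RFP cells (20.7% to 46.7%) and 95% of GFP cells, and Smpdl3a in 25.5% of RFP cells (14.7% to 39%) and 85% of GFP cells. Over all genes, many of them low in both sets, the median share of cells with a read was 21.8% in RFP cells and 27.5% in GFP cells. The 506 genes at 100 CPM or more in GFP cells and at least 1 lower in RFP cells include the members. Their median share was 63.6% of RFP cells, above the shares of Tspan8, Fam213a, Enpep and Smpdl3a and below that of Adh1. The members were chosen for very low levels in RFP cells, so shares below that median follow from the choice and support nothing. Among other host genes very low in RFP cells, the share was 98.2% for Timd2, 83.6% for Dppa1 and 49.1% for Pramel6. It was 43.6% for Havcr1, 40% each for Pramel7 and Elf3 and 3.64% for Cdx2. At an equal 500000 reads per cell, the expected shares were 36.3% of RFP cells and 93.1% of GFP cells for Adh1, and 12.9% of RFP cells and 91.2% of GFP cells for Enpep.

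Levels of 10 CPM or more were rare in injected cells. Tspan8 reached 10 CPM in 5 of 55 RFP cells, Adh1 in 4, Fam213a in 2, and Enpep and Smpdl3a in 0 (exact 95% interval 0% to 6.49%). In 46 RFP cells none of the 5 reached it, in 7 cells a single gene did, and in cells 44 and 49 Adh1 and Tspan8 both did. By reads, 2 RFP cells had none of any of the 5 genes and 4 had all of them.

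The summed RFP levels rest on few cells. The 3 richest cells held 78.7% of the Fam213a reads in RFP cells, 67.9% for Tspan8, 62% for Smpdl3a, 57.7% for Adh1 and 48.6% for Enpep. Of 2113 reads of the 5 genes together in RFP cells, 4 cells held at least 50%. In RFP cells the sum of the 5 genes in CPM was higher in shallower cells, with rho = -0.630 against the reads per cell over 55 cells. The same sum gave rho = 0.290 with the trophectoderm marker sum, 0.101 with the mitochondrial share and 0.0919 with the epiblast marker sum. The part of depth in these traces was not tested.

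RFP cell 44 had the largest trace, with 117 CPM of Adh1, 55.2 of Tspan8, 6.46 of Enpep and 1.43 of Fam213a and no Smpdl3a read. Set against the summed host level of each gene, those values were 6.36% for Adh1, 7.38% for Tspan8, 1.93% for Enpep and 0.227% for Fam213a. The traces in this cell therefore did not keep the proportions of the summed host level. Single host cells did not all keep those proportions either. GFP cell 38 had 1364 CPM of Adh1, 546 of Tspan8, 109 of Enpep and 0.455 each of Smpdl3a and Fam213a. Whether the traces match a single host cell was not tested. In RFP cell 44 the trophectoderm markers summed to 668 CPM and the epiblast markers to 1765 CPM, with 16.3% mitochondrially encoded reads. Other host genes were present in it too, such as Timd2, a ferritin receptor, at 270 CPM and Gata3, a trophectoderm factor, at 94.0 CPM, while Cdx2 was at 0.

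In other RFP cells a single gene made up nearly all of the trace. RFP cell 13 had 40.1 CPM of Tspan8 and no read of the other 4 among 7.18 M reads. RFP cell 18 had 50.1 CPM of Fam213a beside 0.224 CPM of Adh1, 0.447 CPM of Tspan8 and no read of Enpep or Smpdl3a. RFP cell 6, the shallowest at 0.518 M reads and with 62.0% mitochondrially encoded reads, had reads of all 5 genes, at 1.03% to 3.61% of their host levels. These shares rest on 10 reads of Adh1, 2 of Enpep and 4 each of Smpdl3a, Fam213a and Tspan8. They are too coarse to compare between the genes.

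**Figure D4:**
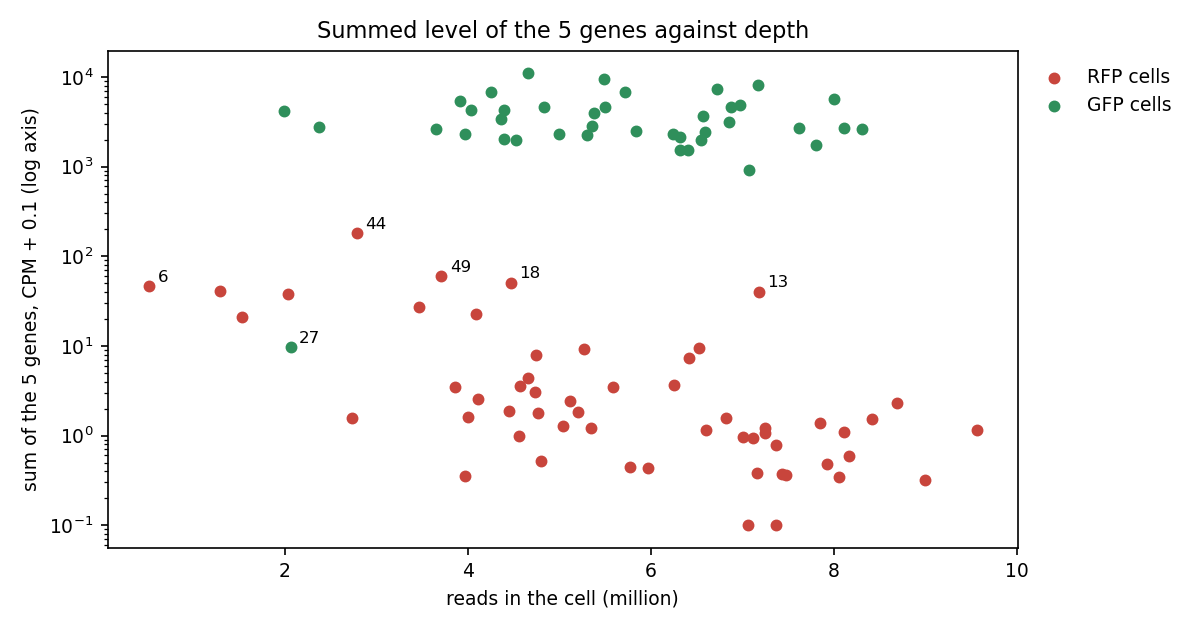
Each point is 1 cell, with its reads in M on the x axis and the summed level of the 5 genes as CPM + 0.1 on a log y axis, RFP cells in red and GFP cells in green. Of the 10 RFP cells above 10 CPM, 9 lie under 5 M reads and cell 13 at 7.18 M, and GFP cell 27 lies among the RFP cells.

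Set beside other host genes, the RFP level as a share of the GFP level was 0.0710% for Enpep, 0.120% for Adh1, 0.150% for Smpdl3a, 0.174% for Fam213a and 0.391% for Tspan8. This order rests on single cells. Without RFP cell 18, which held 224 of the 343 Fam213a reads, Fam213a stood at 0.0613%. Without RFP cell 44, Adh1 stood at 0.0639% and Enpep at 0.0542%, and without RFP cell 52 Smpdl3a stood at 0.0860%. The share was 0.187% for Timd2, 0.189% for Elf3 and 0.398% for Dppa1, and 2.06% for Krt8 and 2.51% for Krt18, the keratins of the trophectoderm. Of 506 genes that stood at 100 CPM or more in GFP cells and at least 1 lower in RFP cells, the median share was 25.1%, and 34 genes were at 1% or less.

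The gene families of the members held genes on both sides, as did all genes. Of the genes with a symbol, 21.9% stood at least 1 lower in RFP cells and 25% at least 1 higher. The counts of each family below are to be read beside these shares. Of the 26 other measured genes of retinoid and alcohol metabolism, 6 stood at least 1 lower in RFP cells and 10 at least 1 higher, with a median log2 ratio of 0.37 against 0.08 over all genes. Adh5, the class III alcohol dehydrogenase that also clears formaldehyde, was at 251 CPM in RFP cells and 117 CPM in GFP cells. Crabp2, a carrier of retinoic acid, was at 75.6 CPM in RFP cells and 0.957 CPM in GFP cells. Dhrs4, a retinal reductase, was at 77.4 CPM in RFP cells and 2.77 CPM in GFP cells. Aldh2, the mitochondrial aldehyde dehydrogenase, was at 51.7 CPM in RFP cells and 18.1 CPM in GFP cells. Rdh13 (log2 ratio 0.17) and Aldh9a1 (0.57) differed by less than 1 on the log2 scale.

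Of the 18 other membrane peptidases and related proteases, 7 stood at least 1 lower in RFP cells and 2 at least 1 higher, with a median of -0.85. Adam10, a sheddase, was at 15.5 CPM in RFP cells and 86.0 CPM in GFP cells, and Bace1 at 3.96 CPM in RFP cells and 30.2 CPM in GFP cells. Lap3 and Npepps, both cytosolic aminopeptidases, were at 133 and 64.6 CPM in RFP cells and at 93.2 and 54.3 CPM in GFP cells. Adam17 (log2 ratio -0.85) and Lnpep (-0.86) also differed by less than 1.

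Of the 29 other sphingolipid and lysosomal genes, 12 stood at least 1 lower in RFP cells and 3 at least 1 higher, with a median of -0.76. Gm2a, the activator protein for ganglioside breakdown, was at 154 CPM in RFP cells and 10762 CPM in GFP cells, a log2 ratio of -6.12. Psap, the precursor of the saposins, was at 11.4 CPM in RFP cells and 425 CPM in GFP cells (-5.11), and Cers2, a ceramide synthase, at 50.98 CPM in RFP cells and 229 CPM in GFP cells (-2.15). Lamp1 (-0.39), Ctsl (-0.13) and Asah1 (-0.38), all lysosomal, differed by less than 1.

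Of the 29 other peroxiredoxin and thiol redox genes, 8 stood at least 1 lower in RFP cells and 6 at least 1 higher, with a median of 0.04. Prdx1, the abundant cytosolic peroxiredoxin, was at 3572 CPM in RFP cells and 1344 CPM in GFP cells (1.41). Sod2, the mitochondrial superoxide dismutase, was at 327 CPM in RFP cells and 1288 CPM in GFP cells (-1.97), and Gpx1, a glutathione peroxidase, at 354 CPM in RFP cells and 723 CPM in GFP cells (-1.03). Sod1 (0.67), Txn1 (0.04) and Glrx3 (0.89) were within 1.

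Of the 26 other tetraspanins, 8 stood at least 1 lower in RFP cells and 5 at least 1 higher, with a median of -0.01. Cd63, a tetraspanin of late endosomes, was at 566 CPM in RFP cells and 5805 CPM in GFP cells (-3.36). Cd9 was at 314 CPM in RFP cells and 1210 CPM in GFP cells (-1.94), and Tspan1 at 0.0161 CPM in RFP cells and 51.4 CPM in GFP cells (-5.69). Cd81 went the other way, at 768 CPM in RFP cells and 184 CPM in GFP cells (2.05). Tspan31 (0.29) and Tspan3 (0.59) were within 1.

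Averaged within 2 kb, methylation was lowest in the Actin-RFP ESCs, the injected line in culture. This held around the starts of Adh1, Enpep, Fam213a and Tspan8 and around both ends of Smpdl3a. Closer to the start it did not hold for every gene, as given below. The values are means over windows of 200 bp with calls in all 3 libraries whose centre lay within 2 kb of the start. Adh1 averaged 41.1% in Actin-RFP ESCs, 62.7% in Gjb2-35delG ESCs and 66.8% in MEF over 14 windows. Fam213a averaged 32.2% in Actin-RFP ESCs, 51.2% in Gjb2-35delG ESCs and 67.8% in MEF over 17 windows. Tspan8 averaged 46.6% in Actin-RFP ESCs, 68.8% in Gjb2-35delG ESCs and 73.3% in MEF over 15 windows. Enpep averaged 49.5% in Actin-RFP ESCs, 75.1% in Gjb2-35delG ESCs and 68.0% in MEF over 17 windows, so there the Gjb2-35delG line stood highest.

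Lower methylation in the Actin-RFP ESCs was general. The starts compared, called all starts here and below, are the most upstream start of each gene in the expression table. Genes absent from that table are not among them, so the ranks are not genome-wide. Over 10986 such starts the medians were 18.6% in Actin-RFP ESCs, 31.9% in Gjb2-35delG ESCs and 48.9% in MEF. The median difference of Actin-RFP ESCs minus MEF was -29.5 percentage points, against -25.7 for Adh1, -18.5 for Enpep, -35.5 for Fam213a and -26.7 for Tspan8. In level, the 4 members with a start in the promoter table stood above most of these starts in this line. Of all starts, 98.3% had a lower mean than Enpep in Actin-RFP ESCs, 97.4% a lower mean than Tspan8, 94.3% than Adh1 and 85.5% than Fam213a. Each library is single, so these are differences between libraries with no spread.

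For Smpdl3a, whose strand was not used here, both gene ends are given. On the mean within 2 kb its lower end lay within the middle 50% of all starts in Actin-RFP ESCs, 12.2% to 26.4%. Within 500 bp that end averaged 18.2% in Actin-RFP ESCs, 32.1% in Gjb2-35delG ESCs and 41.5% in MEF. Those means lay above the upper quartiles of all starts, 8.79%, 15.5% and 22.6% in the same order. The values that follow are again within 2 kb. Around that end the means were 24.7% in Actin-RFP ESCs, 46.7% in Gjb2-35delG ESCs and 49.2% in MEF over 16 windows, and around its upper end 33.6% in Actin-RFP ESCs, 74.6% in Gjb2-35delG ESCs and 84.1% in MEF over 13 windows. At the lower end, windows centred 357 and 557 bases inside the gene stood at 5.92% and 8.39% in Actin-RFP ESCs, 5.75% and 4.76% in Gjb2-35delG ESCs and 2.16% and 4.47% in MEF.

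Close to the starts the genes differed in level, and for Fam213a the level depended on the start. The window over its most upstream start, centred 67.5 bases upstream and overlapping the stretch printed for it, was at 2.66% in Actin-RFP ESCs (180 calls), 3.95% in Gjb2-35delG ESCs (132 calls) and 1.74% in MEF (246 calls). Its 95% Wilson intervals by calls overlapped, at 1.54% to 7.08% in Actin-RFP ESCs, 2.10% to 9.56% in Gjb2-35delG ESCs and 1.12% to 5.22% in MEF. The window over the Tspan8 start was at 51.7% in Actin-RFP ESCs (21 calls), 70.6% in Gjb2-35delG ESCs (70 calls) and 66.4% in MEF (66 calls). The Adh1 window nearest the start was at 34% in Actin-RFP ESCs (99 calls), 43.9% in Gjb2-35delG ESCs (80 calls) and 26.4% in MEF (67 calls), with overlapping intervals.

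Enpep was the only member whose mean within 500 bp was higher in Actin-RFP ESCs than in MEF. The window centred 151.5 bases upstream, chr3:129332801-129333000, was at 51.1% in Actin-RFP ESCs (76 calls, Wilson interval 39.03% to 61.0%), 82.0% in Gjb2-35delG ESCs (67 calls, 72.9% to 90.6%) and 17.5% in MEF (18 calls, 5.84% to 39.2%). The next window upstream was at 55.6% in Actin-RFP ESCs, 71.9% in Gjb2-35delG ESCs and 21.4% in MEF, on 22 to 43 calls. Within 500 bp of the start Enpep averaged 52.2% in Actin-RFP ESCs, 78.4% in Gjb2-35delG ESCs and 32.2% in MEF over 4 windows. By these means the Actin-RFP ESCs stood 20.0 and the Gjb2-35delG ESCs 46.1 percentage points above MEF, and 99.8% of 10733 starts had a lower difference of Actin-RFP ESCs minus MEF. The windows downstream of the start differed less, at 47.6% in Actin-RFP ESCs and 44.8% in MEF centred 248.5 bases in, and at 54.7% in Actin-RFP ESCs and 45.2% in MEF centred 448.5 bases in. Pooled over all calls within 500 bp, Enpep was at 47.8% in Actin-RFP ESCs (387 calls, Wilson interval 42.9% to 52.8%), 82.6% in Gjb2-35delG ESCs (213 calls, 77.0% to 87.1%) and 37.1% in MEF (140 calls, 29.6% to 45.4%). These pooled calls include a window centred 48.5 bases in, left out of the means, with 107 calls in Actin-RFP ESCs and 0 in MEF. Pooled, the intervals of Actin-RFP ESCs and MEF overlapped, but they do not cover the same windows. By window, the difference was largest in the upstream windows, which were thinly covered in MEF. Over the whole 2 kb, 12 of the 17 windows stood lower in Actin-RFP ESCs than in MEF.

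For the other members the 500 bp means were 26.3% in Actin-RFP ESCs, 55.5% in Gjb2-35delG ESCs and 40.2% in MEF for Adh1. Fam213a stood at 8.06% in Actin-RFP ESCs, 22.9% in Gjb2-35delG ESCs and 13.4% in MEF around its most upstream start. Of its other 4 starts in the table, 1 lies beside that one and shares its windows. Around the most downstream start it stood at 49.1% in Actin-RFP ESCs, 80.7% in Gjb2-35delG ESCs and 79.6% in MEF, and around the remaining pair at 48.5% in Actin-RFP ESCs, 69.7% in Gjb2-35delG ESCs and 61.6% in MEF. The low methylation of Fam213a thus belongs to its most upstream starts, and which start the cells used was not measured here. Tspan8 stood at 46.1% in Actin-RFP ESCs, 63.9% in Gjb2-35delG ESCs and 57.9% in MEF. Over all starts the 500 bp medians were 4.35% in Actin-RFP ESCs, 5.61% in Gjb2-35delG ESCs and 7.79% in MEF, and Adh1, Enpep, Fam213a and Tspan8 stood above these medians in all 3 libraries. The cultured lines are not the blastocyst cells, and the host's trophectoderm-marker cells were not among the bisulfite libraries.

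**Figure D5:**
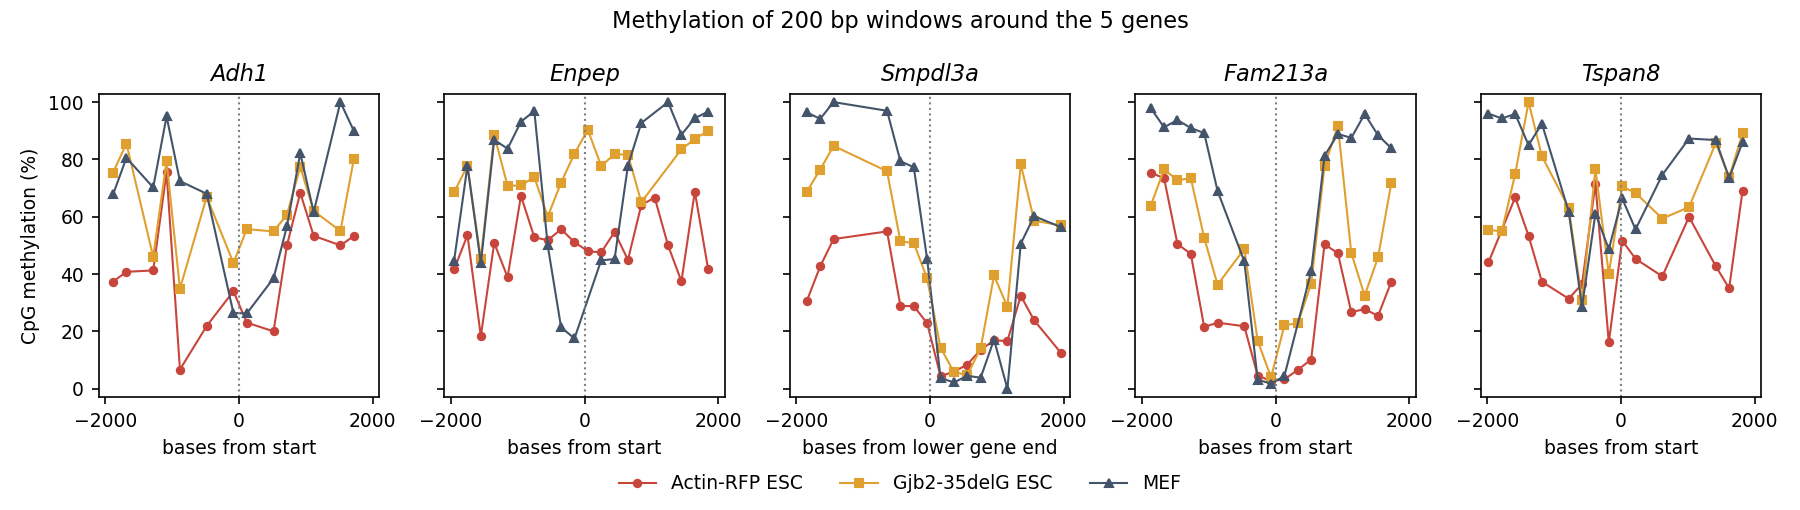
CpG methylation in percent of 200 bp windows against the distance of the window's centre from the gene's start in bases, along the gene's direction (for Smpdl3a, from its lower end in genome order); red circles are Actin-RFP ESCs, orange squares Gjb2-35delG ESCs and dark triangles MEF, 1 library each. Fam213a dips to under 4% at its most upstream start in all 3 libraries, Enpep dips near its start to 17.5% in MEF while both ESC lines stay at 47.6% or more within 500 bp, and Tspan8 has no window below 16.1%.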

How the data were processed

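The labels gave 95 single cells of blastocysts and 3 bisulfite libraries. Full-length cDNA was amplified without molecular identifiers and read as 150 bp pairs, per the labels' protocols. The deposited expression values are a signal, which the authors made by dividing gene read counts by a factor per cell. Each cell's values are whole multiples of a step, and 100% gave whole reads within 0.01. Of the nonzero read values 87.8% are even. If mates of a pair were counted separately, the intervals on reads are too narrow, and PCR copies are not independent either. Intervals on reads and on methylation calls cover counting error only. Intervals on shares of cells treat cells as independent draws, which cells that share an embryo may not be. None of the intervals covers the spread between embryos or libraries. Per the submitters' processing notes the tools were DESeq2 1.30.0, deepTools 3.3.1, StringTie 2.0, featureCounts 2.0.0, STAR 2.7.3a and fastp 0.20.0, with the build mm10 and no role or order given. The authors' deposited log2 fold changes are copied as given. The authors deposited for each 200 bp window a methylation fraction with the counts of calls of either kind, at least 5 calls and a median of 48 to 57 per window near starts. The sources used here do not give the caller.

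Reads were scaled to CPM per cell or over the summed cells of a set. Ratios are RFP over GFP on log2(CPM + 1). Genes were matched by Ensembl ID to symbols (13922 of 13927). No group has replicate samples, so no test, and no count model on the recovered reads, was run. Members, lists and settings were chosen with earlier results of these data known. Named genes were the members, the 5 genes nearest each in rank across GFP cells with predicted genes left out, and up to 6 genes per list at 10 CPM or more in a set, the highest first. Host genes named beside the traces were chosen after their values were seen. For Fam213a the most upstream of 5 starts was used. Shares at equal depth are exact expected values for 500000 reads per cell. Scripts used numpy 2.4.6, pandas 2.3.3 and scipy 1.17.1 and were tested on simulated data.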

Additional observations from a re-analysis of the deposited data

How the results depend on the processing

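The median log2 ratio of the 5 genes, -8.08, was -9.04 with a pseudocount of 0.1 CPM, -5.86 with 10 CPM, -7.78 on the mean over cells of CPM, -7.79 on the difference of mean log2(CPM + 1) and -6.19 on the authors' deposited scaling. It was -8.19 without cells above 10% mitochondrially encoded reads, -8.13 without cells below 2 M reads and -8.12 with mitochondrial genes left out of the total. Each of the 5 genes stayed lower in RFP cells under all 8 alternatives. The genes were chosen for this contrast in the same cells, so that adds no support. The median rho in GFP cells, 0.149, was 0.263 with Pearson on log2(CPM + 1), 0.102 without cells above 10% mitochondrially encoded reads, 0.131 on the deposited scaling and 0.130 given genes detected, and it moved by under 0.01 in the other alternatives. With Pearson and GFP cell 27 left out, chosen after seeing the data, it was 0.0759. The rho of Fam213a and Tspan8 ran from -0.573 to 0.0607 over these alternatives. The median share of RFP cells with a read, 52.7%, was 14.5% at 1 CPM, 3.64% at 10 CPM and 18.6% at 500000 reads per cell. The median methylation difference of Actin-RFP ESCs minus MEF, -26.2 percentage points, was -18.0 within 1000 bp, -8.59 within 500 bp, -28.0 at 10 calls, -28.6 at 20 calls and -25.0 on pooled calls. With Smpdl3a added at its lower or upper end, chosen after seeing the data, it was -25.7 or -26.7. Enpep reversed to 20.0 within 500 bp, where only the windows near its start remain. On mean log2(CPM + 1) per cell, the other genes of retinoid metabolism at least 1 lower or higher numbered 2 and 3, the other membrane peptidases 4 and 0, the other sphingolipid and lysosomal genes 14 and 0, the trophectoderm markers 16 and 1 and the primitive endoderm markers 4 and 0. With a pseudocount of 10 CPM these numbers were 1 and 4 for retinoid metabolism, 4 and 0 for peptidases, 8 and 1 for sphingolipid and lysosomal genes, 5 and 0 for primitive endoderm and 5 and 3 for the other tetraspanins, of which 8 were higher with 0.1 CPM. The share of the host level left in RFP cells, without the RFP cell with the most reads of the gene and chosen after seeing the data, ran from 0.0542% for Enpep to 0.273% for Tspan8. No paired analysis was possible because the replicate numbers of single cells only name them and no test was made. Arms of 55 and 40 cells are not replicate samples, so none was left out in turn.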
